A study of Medicago ruthenica with 9 samples.

Results

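The miRNA table of Medicago ruthenica leaves listed 595 names, and 83 of them (13.9%) belonged by name to the families miR2586, miR2608, miR5205, miR5249 and miR5281. The members were picked by the digits that follow miR or MIR in a name, with no use of their values, and were described by family, precursor arm, length and the number of libraries in which they stood above 0. miR2586 held 29 names, miR2608 held 17, miR5205 held 16, miR5281 held 11 and miR5249 held 10. Because some sequences were named for both arms of a precursor, the 83 names stood for 69 sequences.

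Small RNA was sequenced from leaves of seedlings that were 4 weeks old at the start, with 3 libraries per group. Control plants (CK) were watered every 3 days and kept at a relative soil moisture above 80%. Drought-stressed plants (DS) had no water for 15 days, which left 20% soil moisture, and rewatered plants (RW) went through the same 15 days and were sampled 2 days after full watering. The libraries of a group are described as biological replicates, 8 plants shared a pot, and neither the labels nor the paper tells whether the libraries of a group came from separate pots.

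MicroRNAs are cut from hairpin precursors by Dicer-like enzymes and guide Argonaute proteins to matching mRNAs. The conserved plant families are mostly 21 nt long and begin with U, the base that AGO1 prefers in Arabidopsis. Plants also make a large class of 24-nt small interfering RNAs, which in Arabidopsis load into AGO4, preferably with a 5′ A, and guide DNA methylation at transposons and repeats. The 5 families here carry the prefix mtr of Medicago truncatula, the legume in which they were named.

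In the names, p5 and p3 mark an arm predicted from a known precursor, L and R mark bases gained or lost at the left or right end, and ss marks substitutions against the known sequence. The sequences below are the ones with the highest mean of their family, or those on which a comparison turned. They are written 5′ to 3′ with T for U, and the seed (bases 2 to 8) is in capitals.
mtr-MIR2586a-p5_2ss4CT18AG: tTATAAGTgtcggtgtcgtgtcgg
mtr-MIR2586a-p3_2ss13GT24AT: gACACGGAcacctgacacgacact
mtr-miR2586a_L+5R-2_1: tAACCCGAggagtgtccgtgcttc
mtr-miR2586a_L+5R-2_2: tAATCCGAggagtgtccgtgcttc
mtr-MIR2608-p5_1ss17GT: aCAACTTTctctctcatactcaca
mtr-MIR2608-p5_1ss24TC: aAGAGAAAtgatatttgtacaacc
mtr-miR5205a_R+1: cATACAATttgggacggagggagt
mtr-MIR5205d-p5_2ss8TC19TA: tATACTCCctccgtccctatttat
mtr-MIR5249-p3_2ss1CA22TC: aAAAAGTTgcgattttggccccct
mtr-MIR5281b-p5_2ss7AC21TA: aATACTCCctccggtcctatatat

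No seed group was large. The 69 sequences held 59 distinct seeds over all families, and the largest group within a family was 2 sequences. mtr-MIR5205d-p5_2ss8TC19TA and mtr-MIR5281b-p5_2ss7AC21TA share the seed ATACTCC although they belong to different families. The pair mtr-miR2586a_L+5R-2_1 and mtr-miR2586a_L+5R-2_2 differ by C4T, counted from the 5′ end, which lies inside the seed.

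First base differed between the members and the conserved 21-nt miRNAs of the same leaves. Those conserved miRNAs were chosen at 21 nt, so length could not be compared with them. Of the 83 names, 78 were 24 nt long and 5 were 21 nt long, of which miR5249 held 3. Among the 64 sequences of 24 nt, 41 began with A (64.1%), as did 107 of the 179 other 24-nt sequences in the table (59.8%). Of the 67 sequences of 21 nt in 19 conserved families, 45 began with T (67.2%) and 10 with A. The share with a first A varied by family when all lengths were counted, from 5 of 13 miR5205 and 13 of 25 miR2586 sequences to 6 of 9 in both miR5249 and miR5281 and 12 of 13 in miR2608. Median GC content was 58.3% in miR2586, 45.8% in miR5205 and miR5249, 41.7% in miR5281 and 29.2% in miR2608.

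Most members were read from predicted arms and not from an annotated mature miRNA. 74 of the 83 names were predicted arms, 14 sequences were listed for both the 5p and the 3p arm, and 46 names carried 2 substitutions against the known precursor while 14 carried none. The names were assigned to 81 assembled transcripts, and no transcript carried members of more than 1 of the families.

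The sequences of a family largely tiled a few stretches, as follows from naming by likeness. In miR5249, 5 of 9 sequences held the same 21 nt, which began at 4 different bases between 1 and 4, and these are shown with that stretch in capitals. The stretch was picked from the family's own sequences, and it was found in none of the 474 sequences outside the 5 families.
mtr-MIR5249-p3_2ss20TC24CT: AAAGTTGCGATTTTGGCCCCCtat
mtr-MIR5249-p5_1ss21TC: aAAAGTTGCGATTTTGGCCCCCta
mtr-MIR5249-p3_2ss21TC24AT: aAAAGTTGCGATTTTGGCCCCCtt
mtr-MIR5249-p3_2ss1CA22TC: aaAAAGTTGCGATTTTGGCCCCCt
mtr-MIR5249-p3_2ss2CA23TC: caaAAAGTTGCGATTTTGGCCCCC

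miR2586 was built on a short repeat. All 25 of its sequences held GACAC or its reverse complement GTGTC, and 16 of them held it 2 or more times on 1 strand. Outside the 5 families the motif occurred in 15 of 474 sequences (3.16%) and 2 or more times in 5 (1.05%), and it was absent from the other 4 families. The motif was chosen after the sequences were seen. The 3 examples show 3 or 4 copies in capitals, in the GTGTC direction first and then in the GACAC direction.
mtr-MIR2586a-p5_2ss4CT18AG: ttataaGTGTCgGTGTCGTGTCgg
mtr-MIR2586a-p5_2ss13GT24AT: GACACgGACACctGACACGACACt
mtr-MIR2586a-p3_2ss7GT18AT: GACACctGACACGACACtGACACg

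miR5205 and miR5281 shared a motif across the family border, which the naming did not require. ACTCCCTCCG or its reverse complement CGGAGGGAGT occurred in 8 of 13 miR5205 sequences and in 6 of 9 miR5281 sequences. The motif was picked from these same sequences as the longest stretch common in both families. Its high counts there follow in part from that choice, and the contrast with other sequences is a description only. The other 3 families had none, and 5 of the 474 sequences outside the families had it (1.05%), in names of miR1120, miR8019, miR10405 and 1 candidate with no family number. Both directions occurred in each family, as written in 6 miR5205 and 3 miR5281 sequences and reversed in 2 and 3. Examples are given with the motif in capitals.
mtr-MIR5205d-p5_2ss8TC19TA: tatACTCCCTCCGtccctatttat
mtr-MIR5205d-p5_2ss7TC18TA: atACTCCCTCCGtccctatttata
mtr-miR5205a_R+1: catacaatttgggaCGGAGGGAGT
mtr-MIR5281b-p5_2ss7AC21TA: aatACTCCCTCCGgtcctatatat
mtr-MIR5281b-p5_2ss4AT23CT: atatataggacCGGAGGGAGTatt
mtr-miR5281b_L-1R+1_1ss8AT: cttatatataggacCGGAGGGAGT

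The sequences of mtr-MIR5281b-p5_2ss7AC21TA and mtr-MIR5281b-p5_2ss4AT23CT are reverse complements of each other over their whole 24 nt. A reverse-complement partner of at least 12 nt within the family was found for 8 of 9 miR5281 sequences and 11 of 13 miR5205 sequences, and for none in miR2586, miR2608 or miR5249. As background, Stowaway elements, short transposons common in plant genomes, end in inverted repeats that open with a similar run of bases. No genome was used here, and the origin of these sequences was not tested.

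The values are read counts scaled by the authors with 1 factor for each library (normalized counts), and their sum ranged from 1237467 to 1718279. Low values lay on steps of 1 size, taken here as 1 read, which was 0.252 to 0.310 in CK, 0.460 to 0.617 in RW and 0.788 to 0.893 in DS. The smallest value above 0 stood at 5 steps in 7 of the 9 libraries, so that it was 0.652 to 1.55 in CK, 2.30 to 3.09 in RW and 3.94 to 4.21 in DS. A member listed at 0 may therefore have been read a few times, and this limit was highest in DS.

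The 5 families were expressed at a low level. The median of the members' mean values was 1.79, against 3.08 for the other 24-nt names, 57.9 for the conserved 21-nt names and 4.73 for the whole table. The highest single value was 42.8, for mtr-MIR2586a-p5_2ss4CT18AG in CK library 1. Counted once per sequence, all 5 families together held 0.0198 ± 0.00494% of a CK library's values, 0.0139 ± 0.00308% of a DS library's and 0.0227 ± 0.00351% of an RW library's (SD, n = 3). The members thus made up 13.9% of the names and far less of the signal.

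Few members were listed throughout. Only 5 of the 83 names stood above 0 in all 9 libraries (6.02%), against 22.7% of the other 24-nt names and 60.3% of the conserved 21-nt names. The 5 were mtr-MIR2586a-p5_2ss4CT18AG, mtr-MIR2608-p3_2ss17TA23TC with its p5 twin, mtr-miR5205a_R+1 and mtr-MIR5249-p3_2ss1CA22TC, and miR5281 had none. A median member was listed in 4 libraries, 9 members (10.8%) were listed in 1 library, and 38 were at 0 in all DS libraries. Over all 595 names the median was 6 libraries, 67 names (11.3%) were listed in 1 library, and 196 were at 0 in all DS libraries. 16 members were missing from 1 library only, which was DS library 2 for 7 of them, DS library 1 for 6, RW library 1 for 2 and DS library 3 for 1.

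**Figure D1:**
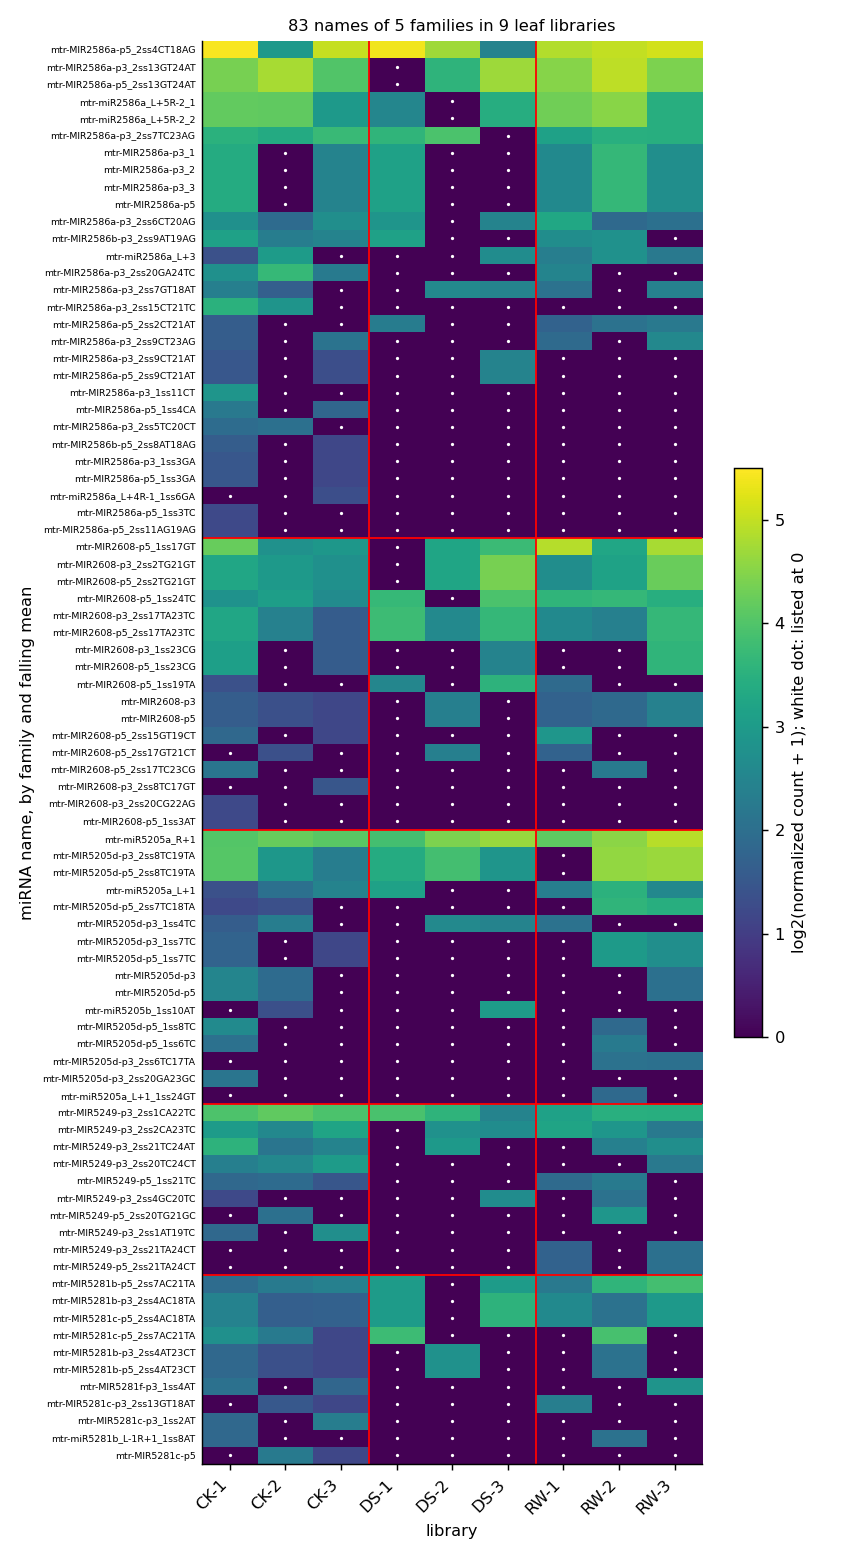
Values of the 83 names (rows, grouped by family and ordered by mean) in the 9 libraries (columns), as log2(normalized count + 1), with a white dot where a name was listed at 0. The DS columns hold the most dots, and 5 names have none in any column.

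The number of members listed fell in the order CK, RW and DS. CK libraries listed 72, 45 and 55 members, RW libraries 40, 47 and 45, and DS libraries 24, 22 and 30, or 57.3 ± 13.7, 44.0 ± 3.61 and 25.3 ± 4.16 (SD, n = 3). No DS library reached the count of any CK or RW library. The same order held over the whole table, with 423 to 489 names listed in CK, 347 to 376 in RW and 283 to 305 in DS, and over the other 24-nt names, of which 70.7 to 83.8%, 52.5 to 62.6% and 40.9 to 47.0% were listed. The smallest value listed ran in the opposite order, so the members were counted again above 4.21, the highest of the smallest values. Above that common floor 35, 21 and 24 members remained in CK, 25, 31 and 35 in RW and 23, 19 and 30 in DS. The group means of 26.7 ± 7.37, 30.3 ± 5.03 and 24 ± 5.57 (SD, n = 3) then came from libraries whose ranges overlapped in every pair of groups.

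The other 24-nt names were counted above the same floor. Of those 198 names, 95 to 113 stood above it in CK, 89 to 116 in RW and 76 to 81 in DS, so that the DS libraries still lay below the rest. Whether the families differ from the other 24-nt names in this respect was not tested. 25 of the 83 members never rose above the common floor, beside 75 of all 595 names and 27 of the 198 other 24-nt names. Of the members, 17 (20.5%) were listed in CK libraries only, 4 in RW only and 0 in DS only. Over all names, 85 of 595 (14.3%) were listed in CK only, 27 in RW only and 4 in DS only, and among the other 24-nt names 24 of 198 (12.1%) in CK only. The members' share was not tested against these.

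**Figure D2:**
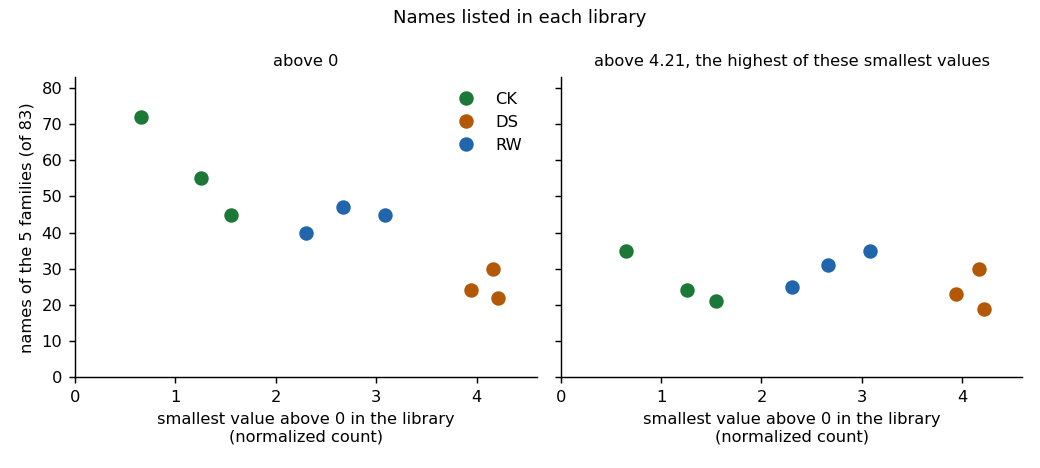
Number of names of the 5 families listed in each library against the smallest value above 0 in that library, counted above 0 (left) and above 4.21 (right). On the left the DS libraries lie at 22 to 30 names and the CK libraries at 45 to 72, and on the right the groups overlap.

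The comparisons asked whether these families changed with drought and with rewatering. Of the 83 members, 29 reached a value of 5 in at least 3 libraries and were tested (13 of miR2586, 6 of miR2608, 4 of miR5281 and 3 each of miR5205 and miR5249), and the other 54 were too low. With limma over all 339 names that met this minimum, an adjusted p of 0.05 was passed by 18 names for DS vs. CK (5.31%), by 8 for DS vs. RW (2.36%) and by 18 for RW vs. CK (5.31%). None of the 29 members was among them in any contrast. An unadjusted p of 0.05 was passed by 0 members for DS vs. CK, by 2 for DS vs. RW and by 0 for RW vs. CK, and by 19.5%, 14.2% and 15.6% of all tested names. Without DS library 1 or DS library 3 the count for DS vs. RW rose to 6 and 5 of 28 tested members. Without RW library 1 it fell to 0 of 29, and without DS library 3 the count for DS vs. CK was 4 of 28. The share of all tested names in these fits is not given here, so these counts give no result about the members. With no minimum and all 83 members in the fit, 6, 4 and 6 members passed the unadjusted threshold, or 7.23%, 4.82% and 7.23%, beside 16.3%, 9.58% and 15.0% of all 595 names. The smallest adjusted p of a member was 0.292, 0.281 and 0.665 in the 3 contrasts.

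The error of the members was wide, as was that of the other 24-nt names. The median standard error of a member's log2 fold change was 0.98, beside 0.93 for the other 24-nt names tested. It was 0.67 over all tested names and 0.42 for the conserved 21-nt names. Changes of the size found in the members could thus not be told from 0. Fitted values are on the log2(value + 1) scale. Adding 1 shrinks changes between low listed values, while a 0 in place of a value too low to be listed can enlarge them. The median log2 fold change of the tested members was −0.70 for DS vs. CK, −0.84 for DS vs. RW and 0.37 for RW vs. CK, beside −0.36, −0.16 and −0.11 over all tested names. In the same order it was −0.71, −0.36 and −0.05 for the 105 other 24-nt names tested. For the 25 tested names of miR1527, another large family, it was −1.10, −0.32 and −0.69. With every value under the common floor raised to it, the members' medians became −0.10, −0.23 and 0.25, beside −0.12, −0.06 and −0.06 over all tested names. The 3 contrasts share their libraries, and the members that passed the minimum are those with higher values, so these medians are a description only.

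**Figure D3:**
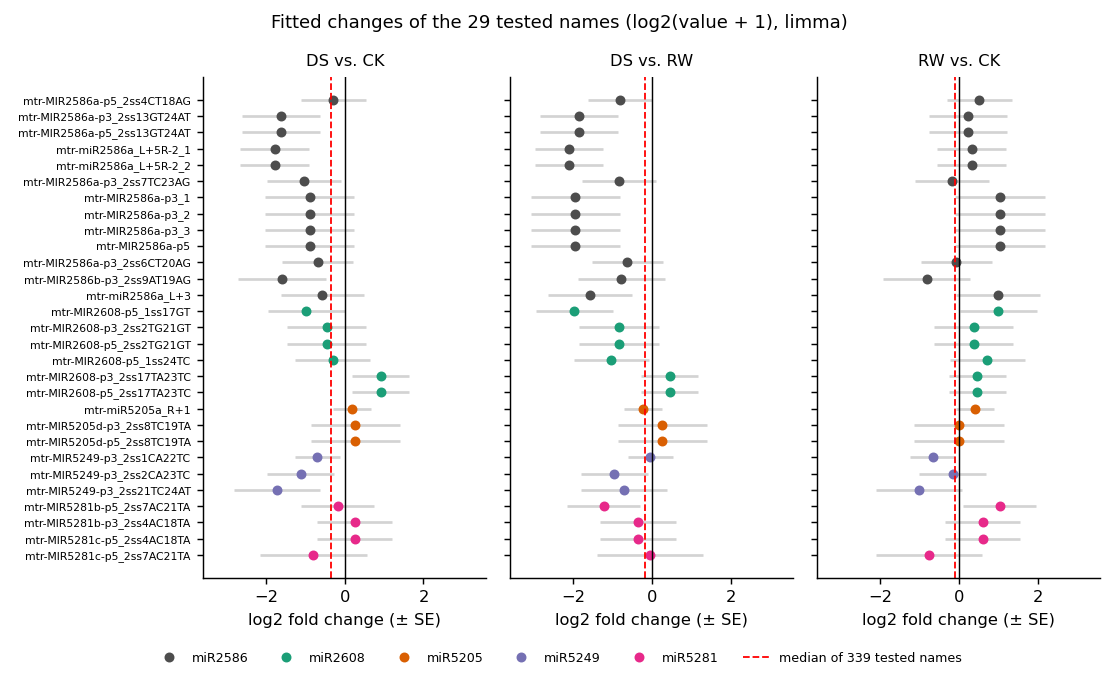
Fitted log2 fold changes (points, bars ± SE) of the 29 tested names by family in the 3 contrasts, with a dashed line at the median of the 339 tested names. All 13 miR2586 names lie below 0 in both contrasts with DS, and no name passed the adjusted test.

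Of the families, miR2586 was the most abundant. Its sequences summed to 196, 113 and 111 normalized counts in CK, to 103, 55.6 and 67.8 in DS and to 142, 167.3 and 120.3 in RW. Every DS library lay below every CK and RW library. When values at or under the common floor were left out, DS library 1 (99.3) lay above CK library 3 (95.8), and all DS libraries still lay below the RW libraries, of which the lowest had 109.8. Leaving out these values was chosen after seeing the data. All 13 tested names of the family had log2 fold changes below 0 in DS against CK and against RW, as did 65.2% and 58.7% of all tested names, but these 13 names stood for only 8 different sets of values. Among the 105 other 24-nt names tested, 78 and 71 lay below 0 in the same contrasts. Of the 25 tested miR1527 names, 24 and 18 did so.

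mtr-miR2586a_L+5R-2_1, a longer form of the annotated miRNA, came nearest to a call. It was listed at 17.2, 16.7 and 6.79 in CK, at 4.73, 0 and 9.82 in DS and at 18.9, 21.8 and 9.87 in RW. The DS libraries lay below all RW libraries, although DS library 3 and RW library 3 nearly met, and DS overlapped CK. The log2 fold change was −2.11 (SE 0.87) in DS vs. RW, with an unadjusted p of 0.0350 and an adjusted p of 0.281 in limma, and −1.78 (SE 0.87) in DS vs. CK with an adjusted p of 0.292. An exact permutation test of the values (2-sided) gave p = 0.1 in DS vs. RW, the smallest that 3 against 3 allows, and 0.2 in DS vs. CK. mtr-miR2586a_L+5R-2_2, which differs by C4T, carried the same 9 values, so both count as 1 measurement and their reads cannot be told apart here.

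mtr-MIR2586a-p3_2ss13GT24AT and its p5 twin are 1 sequence. It was listed at 19.6, 26.3 and 15.1 in CK, at 0, 11.0 and 25.0 in DS and at 21.6, 29.8 and 20.4 in RW. The DS libraries spread over nearly the whole range and overlapped both other groups. The change in DS vs. RW was −1.86 (SE 0.99) on the log2 scale, with an adjusted p of 0.368 in limma and p = 0.3 in the exact permutation test.

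The most abundant sequence, mtr-MIR2586a-p5_2ss4CT18AG, varied between replicates more than between groups. It stood at 42.8, 6.82 and 31.2 in CK, at 41.0, 25.3 and 4.46 in DS and at 28.1, 30.9 and 33.9 in RW. CK and DS each had 1 library far below the other 2, while the RW libraries lay close together. Its log2 fold change in DS vs. CK was −0.29 (SE 0.82, adjusted p = 0.889 in limma).

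mtr-MIR2586a-p5, mtr-MIR2586a-p3_1, mtr-MIR2586a-p3_2 and mtr-MIR2586a-p3_3 carried the same 9 values over 3 sequences. They were at 9.39, 0 and 4.53 in CK, at 7.88, 0 and 0 in DS and at 5.06, 11.7 and 5.55 in RW. All RW libraries listed them, and only DS library 1 did so in DS. At the other end of the family, 10 of its 29 names were listed in CK libraries only, and mtr-MIR2586a-p3_2ss15CT21TC, at 10.4 and 6.2 in CK libraries 1 and 2, was the only one of them with more than 1 value above the common floor.

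**Figure D4:**
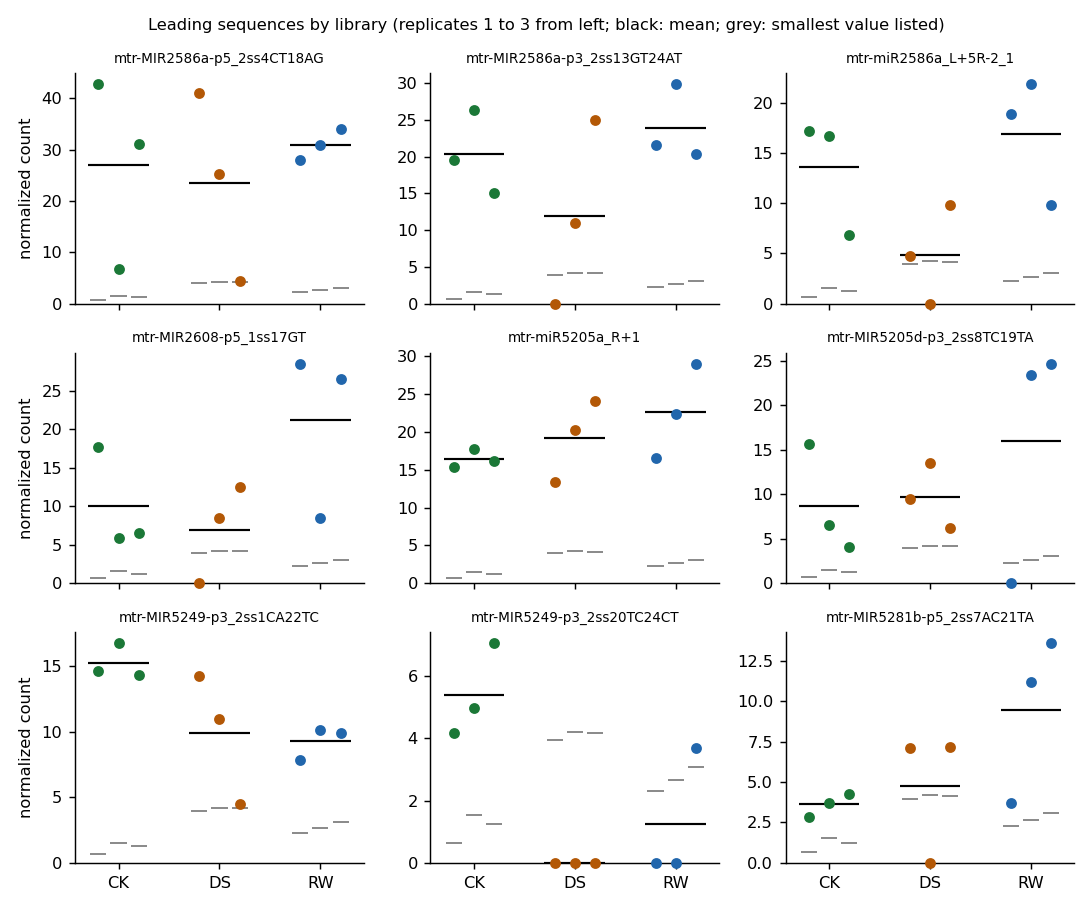
Normalized counts of 9 leading sequences in each library, with the group mean in black and the smallest value listed in the library in grey. mtr-MIR5249-p3_2ss1CA22TC lies at 14.3 to 16.7 in CK, above all DS and RW libraries, and mtr-MIR5205d-p3_2ss8TC19TA is listed at 0 in RW library 1 only.

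miR2608 had 17 names over 13 sequences in 2 blocks, 1 around ATGATATTTG (7 sequences) and 1 around CTCTCTCATACT (5 sequences). Both stretches were picked from these sequences, and neither occurred outside the family. mtr-MIR2608-p5_1ss17GT, of the block with CTCTCTCATACT, was at 17.7, 5.89 and 6.54 in CK, at 0, 8.43 and 12.5 in DS and at 28.5, 8.53 and 26.5 in RW. RW libraries 1 and 3 were the highest, and RW library 2 lay among the DS values. Its change in DS vs. RW was −1.98 (SE 0.98, adjusted p = 0.361 in limma, p = 0.2 in the exact permutation test).

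mtr-MIR2608-p3_2ss2TG21GT and its p5 twin, 1 sequence of the same block, were at 8.61, 6.82 and 5.79 in CK, at 0, 8.43 and 19.6 in DS and at 5.52, 7.99 and 17.9 in RW. Library 3 was the highest in DS and in RW, and all groups overlapped. The change in DS vs. RW was −0.84 (SE 1.01, adjusted p = 0.778 in limma).

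Within the other block, mtr-MIR2608-p5_1ss24TC was at 6.0, 7.44 and 5.28 in CK, at 11.8, 0 and 14.3 in DS and at 11.0, 11.7 and 9.87 in RW. All RW libraries lay above all CK libraries, but the fit gave a log2 fold change of 0.72 in RW vs. CK (SE 0.96, adjusted p = 0.782). mtr-MIR2608-p3_2ss17TA23TC, with the same values as its p5 twin, was listed in every library, at 8.61, 4.34 and 2.01 in CK, at 12.6, 5.06 and 11.6 in DS and at 5.06, 4.26 and 11.7 in RW. It had the highest positive change of the members in DS vs. CK, 0.92 (SE 0.72, adjusted p = 0.483 in limma), and its groups overlapped.

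The miR5205 sequences of either direction differed in their pattern over the libraries. mtr-miR5205a_R+1, which ends in CGGAGGGAGT, was listed in every library. It was at 15.4, 17.7 and 16.1 in CK, at 13.4, 20.2 and 24.1 in DS and at 16.6, 22.4 and 29.0 in RW, or 16.4 ± 1.16, 19.2 ± 5.42 and 22.7 ± 6.22 (SD, n = 3). The groups overlapped, and its change in RW vs. CK was 0.41 (SE 0.47, adjusted p = 0.774 in limma). mtr-miR5205a_L+1 was lower and did not reach the minimum for the fit. It was at 1.57, 3.10 and 4.53 in CK, at 7.88, 0 and 0 in DS and at 4.14, 10.7 and 4.94 in RW, and all its groups overlapped.

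The MIR5205d sequences that hold ACTCCCTCCG set RW library 1 apart. mtr-MIR5205d-p5_2ss8TC19TA was at 15.7, 6.51 and 4.02 in CK, at 9.46, 13.5 and 6.25 in DS and at 0, 23.4 and 24.7 in RW. The sequence 1 base further along, mtr-MIR5205d-p5_2ss7TC18TA, was at 1.30, 1.55 and 0 in CK, at 0 in all DS libraries and at 0, 11.2 and 9.87 in RW. mtr-MIR5205d-p5_1ss7TC, which differs from it by A18T, was at 2.35, 0 and 1.26 in CK, at 0 in DS and at 0, 6.93 and 5.55 in RW. Over the 6 sequences with the motif as written, the sum was 0 in RW library 1, where the smallest value listed was 2.30, and 51.2 and 43.2 in RW libraries 2 and 3. All CK and DS libraries lay between these extremes, at 5.28 to 27.7 and at 6.25 to 13.5.

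miR5249 was the family in which CK stood highest. Its sequences summed to 43.0, 36.0 and 41.5 in CK, to 14.2, 23.6 and 15.2 in DS and to 21.2, 34.1 and 25.9 in RW, so that each CK library lay above all DS and RW libraries. Without the values at or under the common floor the sums were 32.4, 26.7 and 39.7 in CK and 14.2, 23.6 and 15.2 in DS, which still did not overlap, while RW reached 27.2 and overlapped CK. mtr-MIR5249-p3_2ss1CA22TC was its most abundant sequence, at 14.6, 16.7 and 14.3 in CK, at 14.2, 11.0 and 4.46 in DS and at 7.82, 10.1 and 9.87 in RW. Its highest DS library was just under its lowest CK library, and the fitted changes were −0.70 in DS vs. CK (SE 0.57, adjusted p = 0.497 in limma) and −0.66 in RW vs. CK (SE 0.57, adjusted p = 0.665).

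Unlike mtr-MIR5249-p3_2ss1CA22TC, the next 2 names of the family overlapped in every pair of groups. mtr-MIR5249-p3_2ss2CA23TC was at 7.04, 4.96 and 8.30 in CK, at 0, 5.90 and 5.36 in DS and at 8.28, 6.40 and 3.70 in RW, with a change of −1.12 in DS vs. CK (SE 0.85, adjusted p = 0.482 in limma). mtr-MIR5249-p3_2ss21TC24AT was at 10.7, 3.41 and 4.53 in CK, at 0, 6.74 and 0 in DS and at 0, 4.26 and 5.55 in RW, with a change of −1.73 in DS vs. CK (SE 1.09, adjusted p = 0.398).

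mtr-MIR5249-p3_2ss20TC24CT, which begins with the shared stretch, was too low for the fit. The paper lists it among its miRNAs differentially expressed over the 3 groups, by a p-value with no adjustment described. It was at 4.17, 4.96 and 7.04 in CK, at 0 in all DS libraries and at 0, 0 and 3.70 in RW. An exact permutation test (2-sided) gave p = 0.1 in DS vs. CK and in RW vs. CK, the smallest possible, and p = 1.0 in DS vs. RW. Its lowest CK value, 4.17, is about the smallest value that DS libraries list (3.94 to 4.21), so a level a little under that of CK would also read as 0 in DS. mtr-MIR5249-p5_1ss21TC, with 1.76 to 2.79 in CK and 0 in DS, lay wholly under the DS floor.

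miR5281 had the lowest leading sequence of the 5 families, mtr-MIR5281b-p5_2ss7AC21TA with a mean of 5.95. It was at 2.87, 3.72 and 4.28 in CK, at 7.09, 0 and 7.14 in DS and at 3.68, 11.2 and 13.6 in RW. Its exact reverse complement, mtr-MIR5281b-p5_2ss4AT23CT, was at 2.61, 1.55 and 1.26 in CK, at 0, 5.90 and 0 in DS and at 0, 3.20 and 0 in RW. In DS the pair alternated, since libraries 1 and 3 listed only the former and library 2 only the latter, at 7 to 9 steps. The change of the former was 1.04 in RW vs. CK (SE 0.93, adjusted p = 0.671 in limma).

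mtr-MIR5281c-p5_2ss7AC21TA, which differs from mtr-MIR5281b-p5_2ss7AC21TA by A2T, was at 5.74, 3.72 and 1.26 in CK, at 12.6, 0 and 0 in DS and at 0, 13.9 and 0 in RW. Its values in DS and RW came from 1 library each. mtr-MIR5281b-p3_2ss4AC18TA, listed with the same values as mtr-MIR5281c-p5_2ss4AC18TA, was at 4.44, 2.17 and 2.26 in CK, at 7.09, 0 and 10.7 in DS and at 5.06, 3.20 and 6.79 in RW, and all its groups overlapped.

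**Figure D5:**
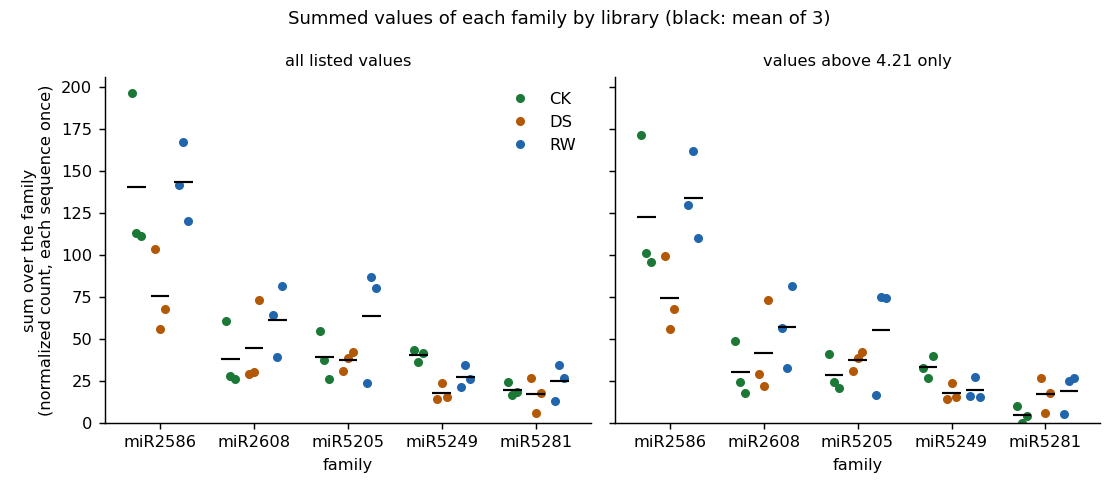
Summed normalized counts of each family by library, each sequence once, over all listed values (left) and over values above 4.21 (right), with the mean of 3 libraries in black. miR5249 lies at 36.0 to 43.0 in CK and at 14.2 to 23.6 in DS, and RW library 1 lies apart from the other RW libraries in miR5205.

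Over all 83 names, the 3 libraries of a pair of groups did not overlap for 4 members between DS and CK, for 2 between DS and RW and for 6 between RW and CK, or 4.82%, 2.41% and 7.23%. The same held for 19.3%, 9.08% and 16.0% of all 595 names. The 2 members between DS and RW were mtr-miR2586a_L+5R-2_1 and mtr-miR2586a_L+5R-2_2, which carried identical values. The 6 between RW and CK included mtr-MIR2608-p3 and its p5 twin, also with identical values. mtr-MIR5249-p3_2ss1CA22TC and mtr-MIR5249-p3_2ss20TC24CT were the members for which CK was apart from both DS and RW, which were set against the same CK libraries.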

How the data were processed

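The libraries used 5 µg of total RNA each and the TruSeq small RNA protocol, were sequenced on an Illumina HiSeq instrument and were processed by the authors with ACGT101-miR, which removed adapter dimers, low-complexity reads, common RNA families and repeats, kept 18 to 25 nt and matched sequences to miRBase 22.0. Its version and the choice of scaling factors are not given in the sources used here. As deposited, the values are a signal (counts scaled with 1 factor for each library by the authors), and the p-values and fold changes in the table were not used. The table held 667 lines, 595 names and 543 sequences, and each name was used once.

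Names that reached 5 in 3 or more of the 9 libraries (339) entered 1 fit of log2(value + 1) by limma (3.58.1, R 4.3.3, mean-variance trend, 3 groups, Benjamini-Hochberg within a contrast, threshold 0.05). The fit was tested on simulated data. Exact permutation tests (tested members under an unadjusted p of 0.1, and mtr-MIR5249-p3_2ss20TC24CT), summaries and figures used Python 3.11.15 with scipy 1.17.1, pandas 2.3.3 and matplotlib 3.10.9. A value was taken as whole steps within 0.05 of a step. Total reads per library were not analysed here, so no counting intervals are given, and p-values cover only the spread between these 3 libraries per group.

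The members and the other lists (other 24-nt names, miR1527, conserved 21-nt families) were chosen with earlier results of these data known. Of miR1527, another large family, 25 of 52 names were tested and none was called in any contrast. Members described by name are those under an unadjusted p of 0.05, the 4 with the highest mean in each family, those above 0 in all 9 libraries and mtr-MIR5249-p3_2ss20TC24CT, while mtr-MIR2586a-p5, its p3 twins, mtr-MIR2586a-p3_2ss15CT21TC, mtr-MIR5205d-p5_2ss7TC18TA, mtr-MIR5205d-p5_1ss7TC, mtr-MIR5249-p5_1ss21TC and mtr-MIR5281b-p5_2ss4AT23CT were added after their values were seen. The alternatives were TMM and table-total scaling, a pseudocount of 0.1 or 5, no minimum, a minimum of 20, each sequence or set of values once, a replicate block, fits of the compared groups alone, low values raised to the common floor and each library left out.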

Additional observations from a re-analysis of the deposited data

How the results depend on the processing

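No member passed under any of the 20 alternatives in any contrast, and the smallest adjusted p of a member over all of them was 0.110 for DS vs. CK, 0.169 for DS vs. RW and 0.255 for RW vs. CK (limma). Counts of calls over all names moved more. In fits of only the groups compared, 11 names passed in DS vs. CK and 4 in DS vs. RW. A minimum of 20 gave 4 in DS vs. RW, and low values raised to the common floor gave 29 in RW vs. CK. Leaving out each library in turn gave 0 to 23 names in DS vs. CK, 0 to 14 in DS vs. RW and 5 to 22 in RW vs. CK, with 0 in DS vs. CK without CK library 1 and 0 in DS vs. RW without RW library 1 or RW library 2. The members' median changes ranged from −1.67 to −0.10, from −1.87 to −0.23 and from −0.000385 to 0.61 in the same order, the outer values of the contrasts with DS coming from a pseudocount of 0.1 and from raised low values. TMM scaling moved the median of all names from −0.11 to 0.01 in RW vs. CK, and that of the members from 0.37 to 0.50. The log2 fold change of mtr-miR2586a_L+5R-2_1 in DS vs. RW ranged from −3.25 to −1.11, with adjusted p from 0.169 to 0.473. Setting each set of identical values once, an alternative chosen after seeing the data like the sums above the floor, lowered the share of miR2586 in RW from 0.0101% to 0.00792%. The cause of these shifts was not tested.

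With the replicate number as a block, 17, 7 and 18 names passed, and 0 members. The correlations of same-numbered libraries ran from −0.154 to 0.0579 over 339 names, so the numbers were not taken to pair the samples. A count-based test on recovered reads was planned and not run. Although 98.3 to 99.7% of the low values of a library lay on whole steps, the smallest value stood at about 5 steps in most libraries and not at 1, so the size of 1 read is inferred. Depth limits what can be said of these families, since listed members had a median of 8 to 16 steps per library.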
